A study of Mus musculus with 15 samples.

Results

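The proteasome genes of a mouse glioma stem cell line, of the endothelial-type cells grown from it and of brain endothelial cells were followed through 50 genes of 49585 in the count table. They were chosen by name alone, as the protein-coding genes whose symbol begins with Psma to Psmg and a number, with no threshold on a measured value. They comprised 7 alpha subunits, 4 structural beta subunits and the 3 constitutive catalytic beta subunits of the 20S core, the 3 interferon-inducible catalytic subunits Psmb8, Psmb9 and Psmb10, 6 ATPases and 3 other subunits of the 19S base, 8 subunits of the 19S lid, 7 assembly chaperones, 3 genes of the inducible PA28 activator, 2 other activators, 1 inhibitor and 2 tissue-restricted subunits. The last of the 50, Psmc3ip, carries the prefix only because its product was found as a partner of Psmc3, and it is not a proteasome subunit.

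RNA was sequenced from 5 groups of 3 libraries, all labelled C57BL/6. The 005 group was a mouse glioma stem cell line kept in serum-free stem cell medium. Tumor derived endothelial cells (TDECs) were grown from 005 in EGM-2 endothelial medium at 1% oxygen, and were sampled on day 2 and, in a group whose label gives no day, later. A further TDEC group received 5 µM sertraline, an antidepressant, after 5 days of differentiation and was collected 24 hours later. Mouse brain microvascular endothelial cells (MBMECs) were bought in and grown in another medium with serum, and their oxygen level is not stated. Medium, oxygen and time in culture therefore changed together between 005 and TDECs, as did source and medium between MBMECs and the other groups, and these cannot be told apart. The library titles of MBMECs and of the sertraline group also lack a prefix that the other groups carry, so library batch may differ. All TDECs came from a single line.

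The proteasome is the barrel-shaped protease that degrades ubiquitin-tagged proteins. Its 20S core carries 3 catalytic activities, held by Psmb6 (beta1), Psmb7 (beta2) and Psmb5 (beta5), and the 19S particle recognises, unfolds and feeds in substrates. Interferon induces Psmb9, Psmb10 and Psmb8, whose products take the places of Psmb6, Psmb7 and Psmb5 in newly built cores to give the immunoproteasome, together with Psme1 and Psme2, which form the PA28 cap. Immunoproteasomes favour the release of peptides that fit MHC class I molecules, and they are abundant in leukocytes and inducible in endothelium. When proteasome activity falls short, the transcription factor Nfe2l1 raises the genes of the constitutive subunits as a set.

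The libraries held 11283680 to 17093061 counts. Replicate 3 of 005, replicate 3 of TDEC day 2 and replicate 2 of the sertraline group stood apart from the others of their group, by a chi-square statistic per gene between libraries, which ran from 6.51 to 10.9 in the 6 pairs with one of them and from 2.09 to 4.67 in the other 9 pairs. Levels are given as CPM, counts per 1000000 after TMM scaling over all 15 libraries. The label of endothelial cells was checked against 6 endothelial markers (Pecam1, Cdh5, Kdr, Tek, Cd34 and Cldn5). The sum of these markers ran from 6683 to 6810 CPM in MBMECs, from 5.05 to 6.05 in TDECs, from 5.55 to 13.0 on day 2, from 5.28 to 8.62 with sertraline and from 2.80 to 4.33 in 005, and Cldn5 had no count in any TDEC library. RNA of defining endothelial markers was thus near 0 in TDECs. Kdr was higher in TDECs (3.74 to 4.36 CPM) than in 005 (0.730 to 1.73 CPM), and Pecam1 was lower. The paper identified TDECs by staining for the proteins CD31 (from Pecam1) and CD34, which these RNA levels do not measure. In bulk RNA, fewer cells of a type and less RNA per cell cannot be told apart.

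Psmb8 and Psmb9 lie side by side in the MHC region of chromosome 17 with the peptide transporter genes Tap1 and Tap2 (build GRCm38). Psmb9 (17:34181988-34187764, minus strand) overlapped Tap1 on the opposite strand by 212 bases, Tap1 ended 495 bases before Psmb8 (17:34197721-34201454, plus strand), and Psmb8 ended 2072 bases before Tap2. Psme1 and Psme2 face each other on chromosome 14 with 5911 bases between them. The promoter windows of the 2 pairs Psmb8 with Psmb5 and Psmb9 with Psmb6, which exchange for each other in the core, follow here from RefSeq for GRCm38.p6, from 250 bases before to 50 after the RefSeq start. These starts differ from the ends of the GENCODE gene spans given above, and the windows of Psmb8 and Psmb9 lie within those spans. Psmb8 is read at chr17:34197945-34198244 on the plus strand, Psmb9 at chr17:34187281-34187580 on the minus strand, Psmb5 at chr14:54617946-54618245 on the minus strand and Psmb6 at chr11:70525107-70525406 on the plus strand. Capitals mark matches to the gamma-activated site TTCNNNGAA in Psmb8 and to the antioxidant response element TGACNNNGC, the kind of site that Nfe2l1 binds, in Psmb5 and Psmb6.
Psmb8: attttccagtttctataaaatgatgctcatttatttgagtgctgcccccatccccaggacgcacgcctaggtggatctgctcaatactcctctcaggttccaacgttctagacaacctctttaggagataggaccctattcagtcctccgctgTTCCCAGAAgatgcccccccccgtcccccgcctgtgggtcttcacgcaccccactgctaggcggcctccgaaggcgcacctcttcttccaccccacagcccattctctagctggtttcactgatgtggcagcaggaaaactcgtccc
Psmb9: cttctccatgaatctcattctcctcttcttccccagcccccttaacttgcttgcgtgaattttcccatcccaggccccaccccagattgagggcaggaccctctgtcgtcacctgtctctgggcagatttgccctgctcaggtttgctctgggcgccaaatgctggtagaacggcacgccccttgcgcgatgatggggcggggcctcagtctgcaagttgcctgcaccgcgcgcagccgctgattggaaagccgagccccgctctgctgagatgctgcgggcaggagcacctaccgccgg
Psmb5: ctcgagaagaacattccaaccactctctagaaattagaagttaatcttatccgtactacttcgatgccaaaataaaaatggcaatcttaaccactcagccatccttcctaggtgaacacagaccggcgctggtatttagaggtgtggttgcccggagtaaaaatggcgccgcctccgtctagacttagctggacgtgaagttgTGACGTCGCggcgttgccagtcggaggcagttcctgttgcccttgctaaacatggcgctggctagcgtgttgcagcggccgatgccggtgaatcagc
Psmb6: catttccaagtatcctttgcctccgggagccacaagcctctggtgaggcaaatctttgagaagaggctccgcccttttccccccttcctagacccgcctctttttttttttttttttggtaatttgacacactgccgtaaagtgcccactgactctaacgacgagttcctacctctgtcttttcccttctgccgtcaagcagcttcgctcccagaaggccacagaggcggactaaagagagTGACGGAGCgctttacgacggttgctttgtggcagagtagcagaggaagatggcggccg

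Windows were found for 42 of 50 members. Both strands were searched, and the 4 windows shown hold at most 1 marked match each. TGACNNNGC began 47 bases before the RefSeq start of Psmb5 and 9 before that of Psmb6, and TTCNNNGAA began 97 bases before that of Psmb8. The antioxidant letters were present in 4 of 25 core and 19S genes with a window (Psmb5, Psmb6, Psmc6 and Psmd12) and in 14.0% of the windows of all 27025 genes. The interferon-stimulated element GAAANNGAA was found in 1 of 5 interferon-inducible members (Psme1) and in 9.76% of all genes, and the gamma-activated letters in 1 of 5 (Psmb8) and in 9.55% of all genes. The window of Psmb9 held neither, and 275 of its 300 bases are also the window of Tap1, read from the other strand. A match of letters is a description and shows no binding.

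Among the constitutive genes, levels per kilobase in TDECs ran from 16.2 CPM per kb for Psmd13 to 86.4 for Psma6 over the 31 core and 19S genes. The inducible catalytic genes lay below all of these. Among them Psmb10 stood at 8.44 CPM per kb in TDECs, 6.60 in 005 and 11.6 in MBMECs, while its counterpart Psmb7 stood at 44.9, 59.9 and 60.4. Psmb9 reached 1.31 CPM per kb in MBMECs and Psmb8 reached 1.65. Psma8, a testis subunit, had 3 counts over all 15 libraries, and Psmb11, the thymus-restricted beta5 subunit, had 40.

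Differentiation was followed first. The 31 core and 19S genes summed to 4264, 4280 and 3946 CPM in 005, to 4542, 4654 and 5189 CPM on TDEC day 2, and to 3208, 3234 and 3264 CPM in TDECs. The TDEC libraries lay below every 005 and day 2 library, and the day 2 libraries lay above every 005 library. The mean sum was 15.2% above 005 on day 2 and 22.3% below it in TDECs. As a share of library counts, these genes made up 0.448% in 005, 0.487% on day 2 and 0.320% in TDECs. On that scale the order was the same, the rise was smaller and the fall larger. The lowest 005 library and the highest day 2 library, at 3946 and 5189 CPM, were those that stood apart from their groups. Without them the sums were 4264 and 4280 CPM in 005 and 4542 and 4654 CPM on day 2. The order was kept and the rise was smaller, so its size depends on these libraries. The sum was thus highest on day 2 and lowest in TDECs.

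Between 005 and TDEC day 2, 15 of 47 tested members were higher, against 18.8% of all genes, and 5 were lower, against 20.2% of all genes (edgeR's quasi-likelihood test, adjusted p under 0.05). None passed a 2-fold change, against 9.83% of all genes. The member median was 0.16 on the log2 scale and the all-gene median was -0.02. Of 31 core and 19S genes, 13 rose and none fell. Scaled by library totals, the split was 8 higher and 9 lower, and without both libraries that stand apart it was 19 higher and 9 lower. The member median without both was 0.08. With a single library left out, 2 to 7 were lower.

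Psmb10 rose most, from 10.8, 10.4 and 12.5 CPM to 17.7, 15.7 and 20.5 CPM, with no overlap (log2 fold change 0.66, SE 0.15, edgeR adjusted p = 0.00446). Psmc5, an ATPase of the base, rose by 0.43 (SE 0.12, edgeR adjusted p = 0.0129) and Psma3, an alpha subunit, by 0.41 (SE 0.10, edgeR adjusted p = 0.00748). The genes that fell were of other kinds. They were Psme1 and Psme2 of PA28 and 3 of the 4 chaperones that assemble the 20S core, Psmg2, Psmg3 and Psmg4, whereas Psmg1 was at 15.4 ± 1.42 CPM in 005 and 15.5 ± 3.31 CPM on day 2 (SD, n = 3). The log2 changes were -0.41 for Psmg2, -0.56 for Psmg3 and -0.47 for Psmg4. These 3 chaperone calls were each lost when single libraries were left out.

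From day 2 to TDECs, 34 of 46 tested members fell, against 31.9% of all genes, and 1 rose, against 31.0% of all genes. Past 2-fold were 3 members (Psma1, Psmd1 and Psmc3ip), against 20.5% of all genes. The member median was -0.48 and the all-gene median was 0.00. The decline covered 28 of 31 core and 19S genes, among them all 7 alpha subunits and all 6 ATPases. It did not cover the PA28 genes, of which 0 of 3 passed, or the 20S chaperones, of which 1 of 4 passed. Both steps share the day 2 libraries, and whether they differ for a gene was not tested. Without TDEC day 2 replicate 3, 33 members were lower and 2 were higher.

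Psma1, an alpha subunit, stood at 93.0, 98.2 and 89.6 CPM in 005, at 122, 117 and 113 CPM on day 2 and at 57.0, 50.6 and 51.8 CPM in TDECs. The 3 groups did not overlap. The step from day 2 was -1.13 (SE 0.07, edgeR adjusted p = 1.27e-07). Psmd1, a large scaffold subunit of the 19S base, went from 229, 220 and 180 CPM to 253, 246 and 302 CPM and then to 131, 132 and 135 CPM, and its later step passed 2-fold (SE 0.08, edgeR adjusted p = 8.66e-07).

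Over the whole course, TDEC against 005, 36 of 46 tested members were lower, against 33.0% of all genes, and 2 were higher, against 32.4% of all genes. The changes were small, and only Psmc3ip passed 2-fold, against 23.5% of all genes. The member median was -0.45 and the all-gene median -0.01. Of the 31 core and 19S genes, 26 were lower, Psmd8 was higher and 4 did not pass (Psmb1, Psmc2, Psmc5 and Psmd4). All 7 alpha subunits and all 3 constitutive catalytic subunits were lower, the latter by 0.35 to 0.47. Library totals shifted the median of all genes to -0.14 and gave 40 lower and 0 higher members, and the member median stood 0.44 below that of all genes on both scales. Without 005 replicate 3, 39 were lower and 3 higher.

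**Figure D1:**
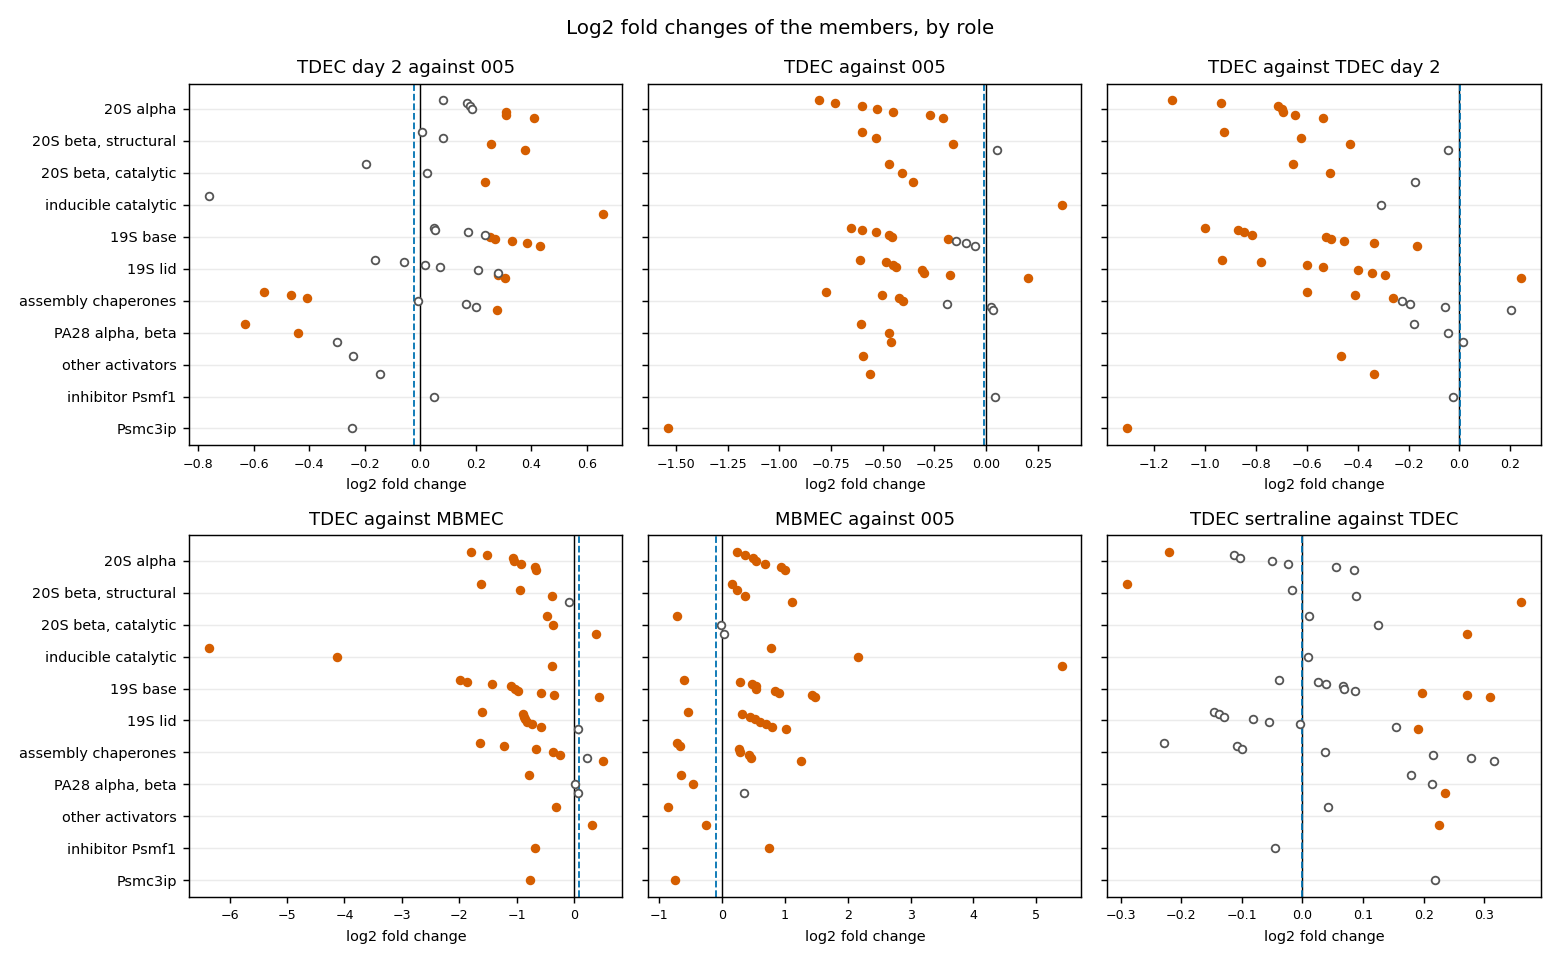
Log2 fold changes (horizontal axes, each panel on its own range) of the tested members by role in 6 comparisons. Filled points had an edgeR adjusted p under 0.05, open points did not, and the dashed line is the median of all genes tested. In TDEC against 005, 40 of 46 points lie below 0.

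The exceptions were Psmd8 and Psmb10. Psmd8, a lid subunit, was at 101, 107 and 105 CPM in 005, 102, 97.3 and 104 CPM on day 2 and 119, 118 and 120 CPM in TDECs. Its rise over 005 was 0.20 (SE 0.06, edgeR adjusted p = 0.00891), and with library totals it was 0.07 (edgeR adjusted p = 0.297). Psmb10 was at 13.2, 14.9 and 15.1 CPM in TDECs, above every 005 library (0.37, SE 0.12, edgeR adjusted p = 0.0216), but this call was lost with library totals, with DESeq2 and when any 1 of 4 libraries of 005 and TDEC was left out. Psmb10 overlaps the opposite-strand gene Gm16156, which went from 16.6 ± 3.68 CPM in 005 to 51.6 ± 3.42 CPM in TDECs (SD, n = 3). The strand setting of the counting is not stated, so reads of these 2 genes cannot be told apart. Psmc3ip, a recombination factor, fell most, from 40.3, 40.8 and 39.6 CPM to 13.2, 14.6 and 13.4 CPM (-1.54, SE 0.09, edgeR adjusted p = 1.57e-08).

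The proteasome genes with other names were counted beside these. Of 10 tested, 6 were lower in TDECs than in 005, against 33.0% of all genes, and 1 was higher, against 32.4% of all genes. Uchl5, a deubiquitinase of the 19S particle, fell from 58.9, 56.2 and 51.2 CPM to 23.2, 23.0 and 23.1 CPM (-1.25, SE 0.08, edgeR adjusted p = 5.51e-08). Shfm1, the small lid subunit also called Sem1, changed by -0.69 and Txnl1, a thioredoxin bound to the 19S particle, by -0.46. Zfand5, which activates 26S proteasomes, was the gene that rose (0.57, SE 0.06, edgeR adjusted p = 2.46e-06).

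Of 5 genes that control subunit transcription, 3 were higher in TDECs than in 005, against 32.4% of all genes, and 1 was lower, against 33.0%. Nfe2l1 stood at 271, 272 and 287 CPM in 005, 313, 320 and 335 CPM on day 2 and 786, 810 and 805 CPM in TDECs, a rise of 1.54 over the course (SE 0.05, edgeR adjusted p = 1.33e-10). Nfe2l2, which binds the same kind of site under oxidative stress, rose by 1.10 (SE 0.07, edgeR adjusted p = 3.53e-08). Ddi2, the protease that cuts Nfe2l1 into its active form, rose by 0.27, and Vcp, the ATPase that draws it out of the membrane of the endoplasmic reticulum, fell by 0.52. Ngly1, which removes its sugars, was at 23.7 ± 2.65 CPM in 005 and 21.7 ± 3.44 CPM in TDECs (SD, n = 3). Nfe2l1 RNA was thus higher in TDECs, where the subunit RNA was lower. Protein and processing of Nfe2l1 were not measured.

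**Figure D2:**
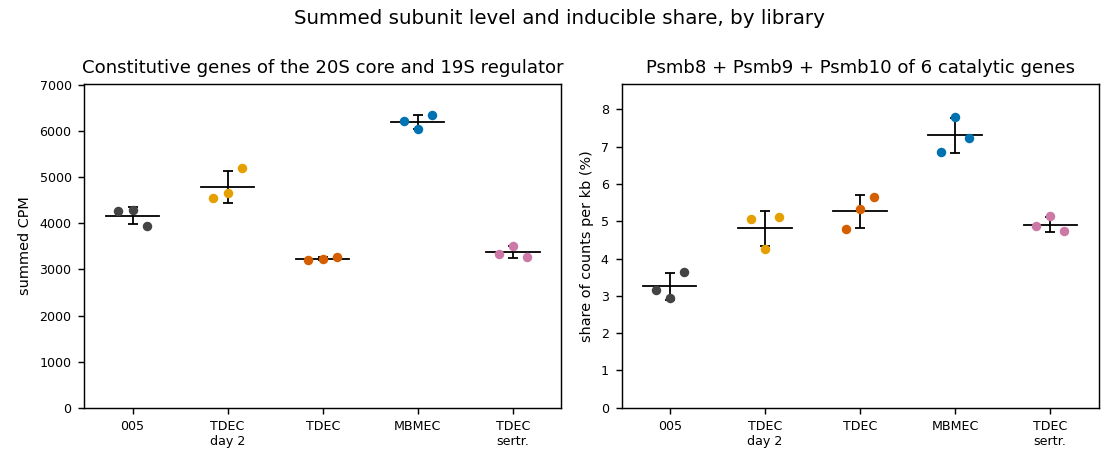
Left, summed CPM of the 31 core and 19S genes; right, share of Psmb8, Psmb9 and Psmb10 in the counts per kilobase of the 6 catalytic genes, in percent. Points are libraries, lines the mean and bars the SD of 3 libraries; TDECs sum to 3208 to 3264 CPM, below the 005 libraries at 3946 to 4280.

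Psmb8 and Psmb9 separated MBMECs from all cells of the 005 line. Psmb8 had 98, 73 and 77 counts in MBMECs, and 1, 1 and 3 in 005, 0, 3 and 0 on day 2, 0, 0 and 2 in TDECs and 1, 4 and 2 with sertraline. On the CPM scale, MBMECs were 100-fold above TDECs with a counting interval from 27.4 to 831, and 73.4-fold above day 2 with an interval from 24.8 to 358 (exact binomial, 95%, counting error only). Psmb9 had 84, 68 and 61 counts in MBMECs, against 15, 10 and 18 in 005, 8, 6 and 10 on day 2 and 2, 3 and 4 in TDECs. No library of the 005 line reached an MBMEC library in either gene. Within the line, Psmb9 was lower in TDECs, at 0.178, 0.246 and 0.326 CPM, than in 005, at 0.730 to 1.30 CPM, and although too low for the filter it gave -2.00 with no filter (SE 0.58, edgeR adjusted p = 0.00237). Psmb8 entered the comparisons with MBMECs only through its MBMEC counts, as did Psmb9 in that with TDECs, and the fold changes are given as a description: MBMEC against 005 gave 5.40 for Psmb8 and 2.17 for Psmb9. Psmb8 overlaps Gm20496 on the opposite strand, which had 227 counts in MBMECs and 12 in TDECs. Psmb9 overlaps Tap1 on the opposite strand, which had 1010 counts in MBMECs and 62 in TDECs. Reads in these overlaps cannot be assigned to either gene.

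**Figure D3:**
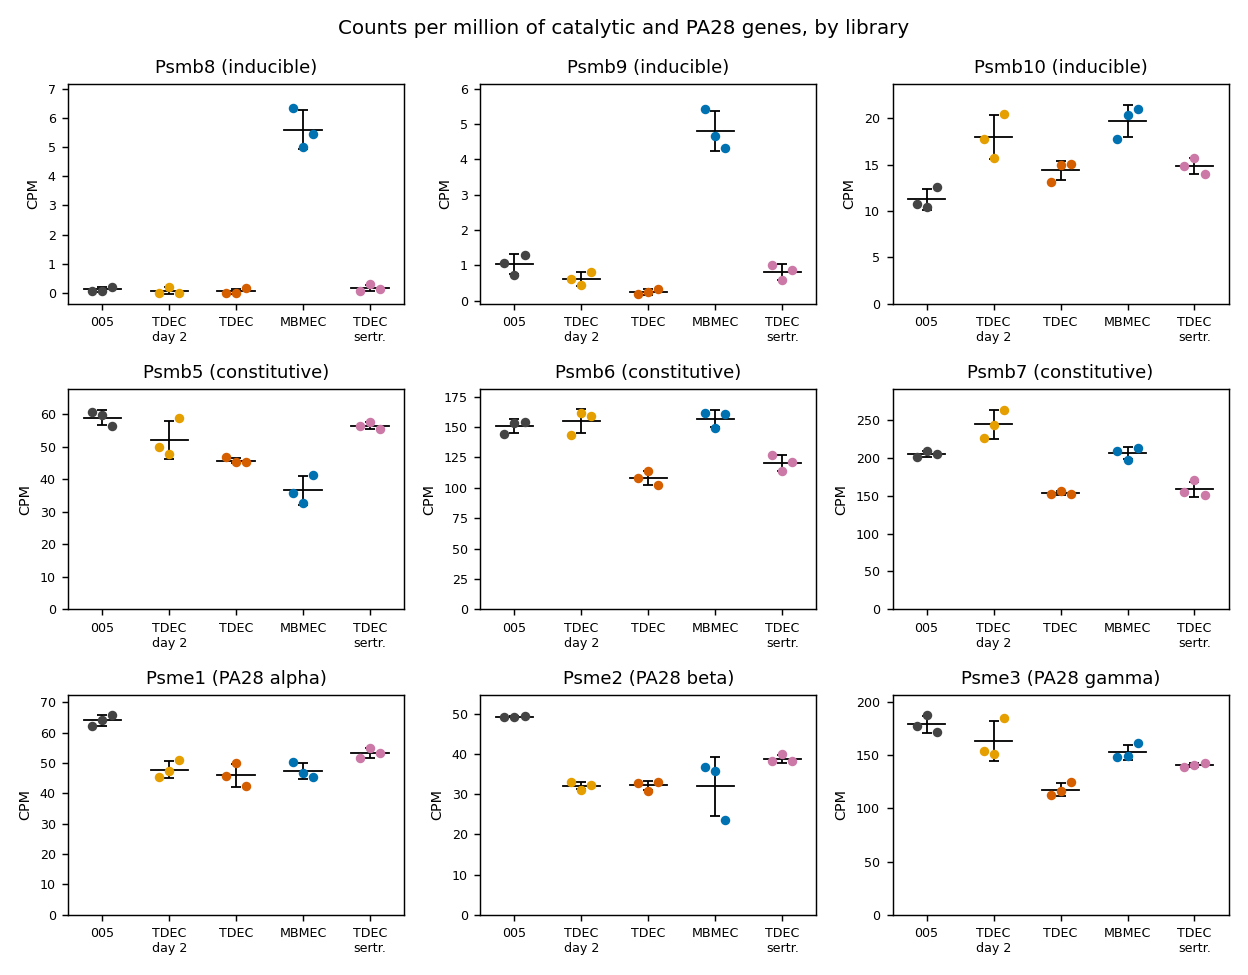
CPM (vertical axes from 0 or just below, each panel on its own range) of the inducible catalytic genes above their constitutive counterparts, and of the PA28 genes, in the 15 libraries. Lines are means and bars the SD of 3 libraries; Psmb8 and Psmb9 stand out in MBMECs, and Psmb10 does not separate MBMECs from TDEC day 2.

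Psmb10, which lies on chromosome 8, followed another course than Psmb8 and Psmb9. In MBMECs it was at 17.8, 20.3 and 21.1 CPM, which overlapped day 2 and lay above TDECs (TDEC against MBMEC -0.38, SE 0.11, edgeR adjusted p = 0.00158). Set against its counterpart Psmb7, Psmb10 reached 5.49% ± 0.557 of the Psmb7 counts in 005, 7.37% ± 0.781 on day 2, 9.37% ± 0.639 in TDECs and 9.56% ± 0.940 in MBMECs (SD, n = 3). The log2 ratio, with 2 counts added to each gene, was 0.77 higher in TDECs than in 005 and 0.02 lower than in MBMECs. The first pair of groups did not overlap and the second did. An exact two-sided permutation test gave p = 0.1 for the first, the smallest value that 3 against 3 libraries allow, and 0.167 after Benjamini-Hochberg adjustment over 30 ratio tests. The second gave an exact p = 0.8. Psmb7 overlaps Nek6 on the opposite strand, as Psmb10 overlaps Gm16156. Reads of these neighbours may therefore enter both sides of the ratio.

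For the other pairs the ratio rests on few counts. With 2 counts added, the log2 ratio of Psmb8 to Psmb5 was -2.68 ± 0.209 in MBMECs and -7.76 ± 0.550 in TDECs, and that of Psmb9 to Psmb6 was -5.00 ± 0.158 and -8.03 ± 0.276 (SD, n = 3). With 0.5 and 5 counts added, the difference between these groups for Psmb8 to Psmb5 was -6.61 and -3.98, so its size depends on the counts added. Per kilobase, the 3 inducible genes together made up 3.16, 2.94 and 3.65% of the catalytic RNA in 005, 5.06, 4.27 and 5.11% on day 2, 4.80, 5.33 and 5.65% in TDECs and 6.87, 7.80 and 7.23% in MBMECs. Almost all of the share outside MBMECs was Psmb10, with the limit on its reads given above. Psmb8 and Psmb9 alone gave 0.150% ± 0.0471 in 005, 0.0524% ± 0.0300 in TDECs and 1.49% ± 0.168 in MBMECs (SD, n = 3).

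MBMECs also held more RNA of the constitutive proteasome, with a core and 19S sum of 6221, 6042 and 6339 CPM, 48.9% above the 005 mean. As a share of library counts, these genes made up 0.563% in MBMECs and 0.448% in 005. That rise is smaller, so its size depends on the scaling. Against 005, 35 of 48 tested members were higher in MBMECs, against 36.9% of all genes, and 10 were lower, against 42.9% of all genes. Past 2-fold were 8 members, against 44.0% of all genes. The higher members and those past 2-fold include Psmb8, which entered this test only through its MBMEC counts. Of the 31 core and 19S genes, which exclude it, 26 were higher, 3 were lower and 5 were past 2-fold. The member median was 0.46 and the all-gene median -0.09. With library totals these medians were 0.24 and -0.30, the same distance of 0.55, and the split was 26 higher and 12 lower. Psmd2, a scaffold of the 19S base, was at 220, 217 and 191 CPM in 005 and at 599, 604 and 598 CPM in MBMECs (1.49, SE 0.07, edgeR adjusted p = 3.38e-10).

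The constitutive catalytic subunits gave other values. Psmb5 was lower in MBMECs, at 35.8, 32.6 and 41.5 CPM against 60.8, 59.8 and 56.4 CPM in 005 (-0.72, SE 0.09, edgeR adjusted p = 9.99e-06). Psmb6 gave 161, 149 and 161 CPM against 144, 154 and 154, and Psmb7 gave 210, 197 and 213 against 201, 208 and 206. Psmb6 (0.02) and Psmb7 (-0.02) did not pass the test, but with library totals they were called lower, by -0.19 and -0.24. The activators Psme4 (-0.86) and Psme3 (-0.26) and the ATPase Psmc6 (-0.60) were lower in MBMECs as well.

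TDECs lay furthest below MBMECs. Of 48 tested members, 39 were lower in TDECs, against 40.2% of all genes, and 4 were higher, against 45.7% of all genes. Past 2-fold were 15 members, against 48.9% of all genes. The lower members and those past 2-fold include Psmb8 and Psmb9, which entered this test only through their MBMEC counts. Of the 31 genes of the constitutive proteasome, which exclude both, 27 were lower, 2 were higher and 11 were past 2-fold. The member median was -0.75 and the all-gene median 0.09. Psmd2 (-1.99), Psmc4 (-1.87) and Psma1 (-1.79) had the lowest values after Psmb8 and Psmb9, and the 4 higher members were Psmg2 (0.50), Psmc6 (0.44), Psmb5 (0.39) and Psme4 (0.32). Since both comparisons with TDECs share the TDEC libraries, their values are given side by side only.

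Psme1 and Psme2 fell by day 2, while the copy Psme2b did not pass the test there. Psme1 was at 62.3, 64.3 and 65.9 CPM in 005, at 45.4, 47.3 and 50.9 CPM on day 2, at 45.8, 49.9 and 42.3 CPM in TDECs. MBMECs gave 50.3, 46.6 and 45.4 CPM. Of these groups 005 stood above all others, which overlapped. The fall by day 2 was -0.44 (SE 0.08, edgeR adjusted p = 0.00189), and TDECs differed from day 2 by -0.05 (edgeR adjusted p = 0.648). Psme2 was at 49.3, 49.2 and 49.5 CPM in 005, 33.1, 31.1 and 32.4 CPM on day 2 and 32.8, 30.9 and 33.0 CPM in TDECs, and the fall by day 2 was -0.63 (SE 0.08, edgeR adjusted p = 0.000182). Psme3, the PA28 gamma gene that works in the nucleus and is not interferon-inducible, was at 178, 188 and 172 CPM in 005 and 154, 152 and 185 CPM on day 2, and fell only in TDECs, to 112, 116 and 125 CPM (-0.59 against 005, SE 0.06, edgeR adjusted p = 4.92e-06).

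Psme2 has a near-identical copy without introns, Psme2b, and reads may be split between them. In MBMECs Psme2 had 569, 522 and 333 counts and Psme2b had 247, 179 and 455, while their sums were 816, 701 and 788. The low Psme2 value of MBMEC replicate 3 was matched by a high Psme2b value. Summed, the pair was lower in TDECs than in MBMECs (-0.20, edgeR adjusted p = 0.0109), where Psme2 alone gave 0.07 (edgeR adjusted p = 0.542). The early fall held for the sum, at -0.55 by day 2 (edgeR adjusted p = 0.000352).

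The interferon and MHC class I genes were set beside the inducible members. Of 19 tested, 16 were higher in MBMECs than in 005, against 36.9% of all genes, and 1 was lower, against 42.9% of all genes, with H2-D1 (5.48), Tapbp (1.97) and Ifngr2 (1.95) the 3 with the smallest p among those that rose. In TDECs against 005, 7 of 19 were higher, against 32.4% of all genes, and 7 were lower, against 33.0% of all genes. Irf1, the factor that drives Psmb9 and Tap1, changed by -1.16 (SE 0.12, edgeR adjusted p = 2.95e-06), Stat2 by -0.85 and Tapbp, which holds MHC class I at the peptide transporter, by -0.78. H2-K1 rose by 2.60, the interferon gamma receptor Ifngr1 by 1.55 and B2m by 0.50. H2-K1 and H2-D1 belong to a family of similar genes, and their reads may be split. Leukocyte RNA was checked with 8 genes: their sum was 12.1 to 13.1 CPM in 005, 33.2 to 39.1 in TDECs and 105 to 121 in MBMECs, with Cd68 and Csf1r as the only members over 1 CPM, while Ptprc, the pan-leukocyte gene, had 1 count in MBMECs and 1 in TDECs. Cd68 itself was at 4.63, 27.6 and 102 CPM in these groups.

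TDECs given sertraline were compared with untreated TDECs. Of 46 tested members, 8 were higher, which is 17.4% of them against 17.6% of all genes, and 2 were lower, against 17.7% of all genes. None passed 2-fold, against 5.08% of all genes. The member median was 0.04 and the all-gene median 0.00. With library totals the split was 15 higher and 1 lower, and without sertraline replicate 2 it was 10 higher and 7 lower. The share of members called higher was thus that of any gene, and the sum of the core and 19S genes was 3326, 3517 and 3270 CPM, each just above the TDEC libraries. The treated libraries were collected 24 hours after a drug given on day 5, their titles lack a prefix that the untreated ones carry, and drug, collection time and library batch cannot be told apart.

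Single subunits moved by small amounts. Psmb4, a structural beta subunit, rose from 154, 152 and 152 CPM to 201, 210 and 192 CPM (0.36, SE 0.05, edgeR adjusted p = 7.33e-05). Psmb1, its neighbour in the beta ring, fell from 230, 224 and 219 CPM to 191, 192 and 181 CPM (-0.29, SE 0.05, edgeR adjusted p = 0.000455). Neither gene overlapped between the groups. Psmb5 rose from 46.8, 45.2 and 45.3 CPM to 56.6, 57.8 and 55.4 CPM (0.27, SE 0.06, edgeR adjusted p = 0.00361), and Psmc3, an ATPase, from 91.4, 87.9 and 82.5 CPM to 107, 122 and 103 CPM (0.31, SE 0.07, edgeR adjusted p = 0.00226). Psmb6 (0.13) and Psmb7 (0.01), the other catalytic subunits, did not pass. Psma2 was called lower (-0.22, edgeR adjusted p = 0.036), a call lost with library totals, with DESeq2 and without most single libraries.

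The inducible members differed in their values with sertraline. Psme2 rose from 32.8, 30.9 and 33.0 CPM to 38.2, 40.0 and 38.4 CPM (0.24, SE 0.07, edgeR adjusted p = 0.0211), a call lost with DESeq2, with a fit over all libraries and without TDEC replicate 2 or 3, and Psme1 was at 51.6, 55.1 and 53.3 CPM (0.18, edgeR adjusted p = 0.0667). Psmb10 was level, at 14.8, 15.7 and 14.0 CPM. Psmb9 had 14, 8 and 12 counts against 2, 3 and 4 in TDECs, without overlap, which is at the level of 005 with 15, 10 and 18. It was too low for the filter, and with no filter its change was 1.65 (SE 0.61, edgeR adjusted p = 0.0355). DESeq2 gave an adjusted p of 0.122. Psmb9 overlaps Tap1, which also rose, by 212 bases on the opposite strand. With the strand setting not stated, reads in the overlap cannot be assigned to either gene.

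Of 19 interferon and MHC class I genes, 6 were higher in the sertraline group than in untreated TDECs, against 17.6% of all genes. In the other direction, 1 was lower, against 17.7% of all genes. Tap1, which shares its promoter window, went from between 1.31 and 2.28 CPM to 5.28, 3.69 and 4.99 CPM (1.39, SE 0.25, edgeR adjusted p = 0.000517), Tapbp from 12.7, 12.1 and 13.8 CPM to 22.4, 28.6 and 23.2 CPM (0.91, SE 0.11, edgeR adjusted p = 1.52e-05), and Irf1 from 8.99, 7.96 and 9.20 CPM to 15.7, 19.9 and 16.2 CPM (0.95, SE 0.13, edgeR adjusted p = 2.87e-05). Tap2, named after its values were seen, rose by 1.02 (SE 0.22, edgeR adjusted p = 0.00199). None of these genes overlapped between the groups. H2-K1 was the gene that fell (-0.81, SE 0.07, edgeR adjusted p = 5.8e-07). The treated levels of Tap1 and Irf1 were near those of 005, at 4.03 to 5.77 CPM and 18.5 to 20.3 CPM, and below those of MBMECs. Nfe2l1 changed by 0.14 (SE 0.05, edgeR adjusted p = 0.026) from an already high level.

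**Figure D4:**
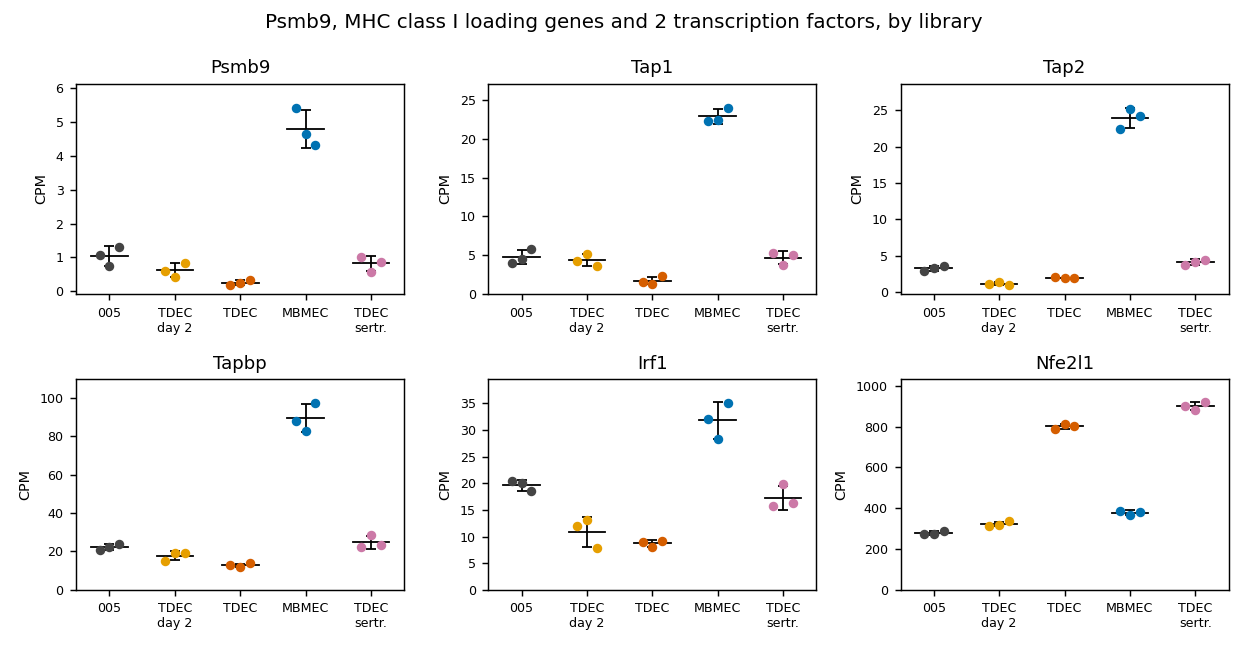
CPM (vertical axes from 0 or just below, each panel on its own range) of Psmb9, of the MHC class I loading genes Tap1, Tap2 and Tapbp, and of the transcription factors Irf1 and Nfe2l1 in the 15 libraries. Lines are means and bars the SD of 3 libraries; Tap1 reaches 22.3 to 24.0 CPM in MBMECs and 1.31 to 2.28 CPM in TDECs, and Nfe2l1 is highest in the later TDEC group and with sertraline.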

How the data were processed

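Poly(A) RNA was isolated and made into directional libraries, 3 per group in 5 groups. The authors deposited raw counts of reads per gene for 49585 genes, which they had not normalized. Tools listed in the notes of the submitters, with no role or order, are featureCounts 1.6.3, HISAT2 2.1.0, Trimmomatic 0.38 and bcl2fastq 2.19, and the build is mm10. The strand setting, the annotation release and the handling of multi-mapping reads are not given in the sources used here. Of the 50 members, 18 overlap another gene with 10 or more counts, and 5 overlap such a gene on the same strand. The labels of 005, TDEC day 2 and MBMEC do not say that libraries came from separate cultures, so p-values measure the spread between these libraries, which may be technical.

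Each comparison used its 6 libraries in R 4.3.3 with edgeR 4.0.16: TMM scaling, filterByExpr with a minimum count of 10, glmQLFit and glmQLFTest, two-sided, with Benjamini-Hochberg adjustment over all genes tested. Members called higher or lower had an adjusted p under 0.05, and the study's stricter threshold adds a change of over 2-fold. Gene lengths (merged exons) and positions came from GENCODE M21, which held 99.5% of the gene IDs, all on the same chromosome. The fit was tested on simulated data with known changes. Alternatives were library totals, DESeq2 1.42.0, no filter, a fit over all 15 libraries, the replicate number as a block, and leaving out each library. Leaving out both libraries that stand apart and summing Psme2 with Psme2b were added after seeing the data. Same-numbered libraries did not deviate together (correlations from -0.08 to 0.08), so numbers do not pair samples. Python 3.11.15 with scipy 1.17.1 gave the exact permutation tests and intervals.

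The values in every library are given for Psmb8, Psmb9, Psmb10, Psmb5, Psmb6, Psmb7, Psme1, Psme2 and Psme3. Beyond these, each comparison names the 3 largest rises and 3 largest falls among members past the threshold and, from each gene list, up to 3 genes per direction by smallest p. A further 4 non-coding or pseudogene rows with matching symbols, with at most 6 counts each, were left out. The members and lists were chosen with earlier results of these data known.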

Additional observations from a re-analysis of the deposited data

How the results depend on the processing

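Of the counts of members, 182 alternative values stayed within 1.5 times the reported count and 37 moved beyond it. Of the values for single named genes, 724 kept direction and side of the threshold, 36 lost their call, 15 gained one and 2 reversed. The reversed values were Psmb6 in MBMEC against 005, -0.19 with library totals, and Psme2 in TDEC against MBMEC, -0.20 when summed with Psme2b. The causes were not tested.

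For TDEC day 2 against 005, library totals gave 8 higher and 9 lower members, the replicate block 8 and 3, and 9 were lower without both libraries that stand apart. Leaving out one library gave 2 to 7 lower, with the lowest count without TDEC day 2 replicate 2. For TDEC against 005, members called higher were 0 with library totals and 1 to 3 without single libraries, and members past 2-fold were 3 with DESeq2, 3 with no filter, 2 over all 15 libraries and 1 to 3 without single libraries. For TDEC against TDEC day 2, higher members were 2 with DESeq2 and 2 with no filter, and 1 to 2 without single libraries. For sertraline against TDEC, 15 were higher with library totals. Members lower there were 1 with library totals, 1 with DESeq2, 1 over all 15 libraries and 1 to 7 without single libraries, with the 7 reached without sertraline replicate 2. Past 2-fold were 2 with no filter, 1 over all 15 libraries and 0 to 1 without single libraries.

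Replicate numbers did not pair the libraries. With the replicate block, TDEC against 005 gave 2 higher and 33 lower members.

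The log2 ratios of the genes with few counts moved with the number of counts added. For Psmb8 to Psmb5 with 0.5 counts added, the difference was -0.79 for day 2 against 005, -0.64 for TDEC against 005, -6.61 for TDEC against MBMEC, 5.98 for MBMEC against 005 and 1.06 for sertraline against TDEC. With 5 counts added, it was -3.98 for TDEC against MBMEC and 4.32 for MBMEC against 005. For Psmb9 to Psmb6 with 0.5 and 5 counts, it was -1.39 and -0.56 for TDEC against 005, -3.53 and -2.40 for TDEC against MBMEC, and 1.39 and 0.65 for sertraline against TDEC. Without dividing by length, the inducible share was 3.97% on day 2, 4.56% in TDECs and 4.50% with sertraline, and with the longest transcript it was 6.66% in MBMECs and 4.58% with sertraline. Outside MBMECs, Psmb8 was too low for the filter in each comparison, and Psmb9 passed it only in TDEC day 2 against 005.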

Other observations

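Psmb11, the beta5 subunit of thymic epithelium, was too low for the filter. It had 25 counts in TDECs, 4 on day 2, 7 with sertraline, 3 in 005 and 1 in MBMECs, over 3 libraries each. The TDEC rate was 9.68 times that of 005, with a counting interval from 2.95 to 50.1 (exact binomial, 95%, counting error only). With no filter the log2 fold change was 3.11 (SE 0.86, edgeR adjusted p = 0.00134). For sertraline against TDEC it was -2.01 (SE 0.71, edgeR adjusted p = 0.0234), where DESeq2 gave an adjusted p of 0.0872. The higher counts were thus limited to the untreated later TDEC group. Psmb11 lies 7314 bases from Psmb5 on the opposite strand. Psmb11 was singled out after its counts were seen.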
